A study of Mus musculus with 8 samples.

Results

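The genes described here are 34 genes of cholesterol and fatty acid synthesis and of the sensing and transport of sterols, chosen by name from the 54146 genes for which expression was estimated in EL4 cells, a mouse T lymphoblast line. The choice was made with earlier results of these data known. They were followed in 4 lines of EL4 cells with 2 RNA-seq libraries each, 8 in all. GFP + Plum cells carried the fluorescent proteins GFP and Plum and served as the control, T-bet + Plum cells carried FLAG-T-bet and Plum, GFP + GATA3 cells carried GFP and HA-GATA3, and T-bet + GATA3 cells carried FLAG-T-bet and HA-GATA3. Values are given for these lines in the order control, GATA3 alone, T-bet alone and both factors. T-bet and GATA3 are the transcription factors that specify the TH1 and TH2 types of helper T cell, and the study asked how each factor affects the function of the other when both are present. All 4 lines were stimulated for 4 h with ionomycin at 1 μM together with PMA at 50 ng/ml, so neither an unstimulated state nor an untransduced cell is part of these comparisons. The factors were delivered with retroviruses and produced constitutively, and the study defines replicates as harvests of the same line on different days, so that p-values measure the spread between harvests and not between independently made lines.

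Cells make cholesterol from acetyl-CoA through mevalonate, the isoprenoid diphosphates, squalene and lanosterol, and they make fatty acids from the same acetyl-CoA through malonyl-CoA. Most enzymes of both routes are targets of the SREBP transcription factors, which are held in the endoplasmic reticulum by SCAP and the INSIG proteins while sterols are plentiful and are released to the nucleus when sterols are scarce. Activated T cells are known to raise both routes as they build membrane before division, whereas LXR nuclear receptors sense oxysterols and switch on sterol export.

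The libraries held between 8038565 and 16003519 estimated counts, of which the 34 genes took between 0.331% and 0.425%. Replicate 1 was the shallower library of each line, control included. In counts per 1000000 (CPM), 3 counts, taken as the floor for counting error alone, were worth 0.187 to 0.373. Tbx21, which encodes T-bet, was between 1.78 and 3.59 CPM in the 4 libraries without FLAG-T-bet and between 129 and 160.1 CPM in the 4 with it. Gata3 was between 25.8 and 53.3 CPM without HA-GATA3 and between 165 and 326 CPM with it, and reads of the introduced and the endogenous gene were not separated. Of 8 T cell markers, 7 were above 1 TPM (transcripts per 1000000) in every library and Cd247 was below it in every library, at 0.511 TPM or less. All 5 B cell, 3 erythroid and 5 macrophage or dendritic cell markers were under 1 TPM throughout, as were 3 of 4 fibroblast markers, the exception being Pdgfra at 0.554 to 6.65 TPM. CPM were computed on library sizes scaled with edgeR's TMM method, and TPM are the authors' own length-corrected values summed per gene.

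The sequence upstream of these genes is where SREBPs and their usual partner NF-Y are known to act, through sterol regulatory elements and CCAAT boxes. RefSeq promoter windows (250 bases before to 50 after a start, build GRCm38.p6) were found for 27 of the 34 genes, 35 windows in all. No entry was found for Fdps, Fdft1, Sqle, Scd1, Scd2, Stard4 and Abcg1. A CCAAT box, searched as CCAAT on both strands so that ATTGG is a match on the other one, was present in 21 of the 27 genes, against 41.06% of all 27025 genes with a window, and in 22 of their 35 windows, against 37.41% of all 32851 windows of that length. The sterol element core TCACNCCA was present in 3 genes, Hmgcs1, Msmo1 and Srebf2, against 4.969% of all genes (4.362% of windows), and the E-box CACGTG in 6 genes, against 8.093% (7.15% of windows). Neither strand of any window held the T-box AGGTGTGA (1.476% of all genes, 1.275% of windows), and the GATA site AGATAA was found in Insig2 alone (12.7% of all genes, 11.18% of windows). Within a window, matches of different motifs did not overlap, and 2 of the 3 CCAAT matches of Fasn overlapped each other, while the E-box of Scap is 1 site seen in 2 windows. Hmgcs1 is shown because its upstream sequence held both the sterol element core and a CCAAT box. The same held for Msmo1 and Srebf2, which are not shown. Insig1 and Hsd17b7, picked after their values were seen, are shown because both were raised in cells with T-bet and their E-boxes stood in a common stretch. Dhcr7, also raised, held an E-box as well, without that stretch. This E-box lay in a window among the 3 of Dhcr7, at -164 to -159 from that window's start and inside the longer Gencode gene. The remaining E-boxes were those of Sc5d and Scap, neither called for T-bet, and of Abca1, which failed the filter on low counts. Idi1, Cyp51 and Acly, also raised, held no E-box in their windows. Whether an E-box goes with the change in expression was not tested. Capitals mark TCACNCCA, CCAAT and CACGTG on either strand.
Hmgcs1, chr13:119690206-119690350, plus strand: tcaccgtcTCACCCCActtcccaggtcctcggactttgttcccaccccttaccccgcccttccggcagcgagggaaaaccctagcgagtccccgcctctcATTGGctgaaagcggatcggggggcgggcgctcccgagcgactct
Insig1, chr5:28071218-28071362, plus strand: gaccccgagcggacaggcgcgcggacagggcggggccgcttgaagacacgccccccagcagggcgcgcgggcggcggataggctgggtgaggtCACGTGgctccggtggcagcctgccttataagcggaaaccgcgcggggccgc
Hsd17b7, chr1:169969242-169969386, minus strand: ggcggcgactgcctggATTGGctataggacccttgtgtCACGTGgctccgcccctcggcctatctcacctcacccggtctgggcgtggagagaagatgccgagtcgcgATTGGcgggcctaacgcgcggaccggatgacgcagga
Each is read 5′ to 3′ on the strand of its gene and lies wholly upstream of the RefSeq and Gencode starts. The E-boxes of Insig1 and Hsd17b7 stood within a run of 14 identical bases, the longest run that these 2 sequences share.
Shared run: gtCACGTGgctccg
Over all 32851 windows, 5 held that run on either strand (0.01522%), and 2 of the 5 were these genes' own, so that no other of the 35 windows held it. For Idi1 and Cyp51, both also raised in cells with T-bet, 30 bases around each CCAAT box upstream of the RefSeq start are given, all of which lie inside the longer Gencode gene.
Idi1, chr13:8885548-8885577, plus strand: ttgcctccagctgATTGGcgagcccgggca
Idi1, chr13:8885576-8885605, plus strand: catggtccaaggtgccATTGGctggcgacc
Cyp51, chr5:4104710-4104739, minus strand: ccgctgtccgccaCCAATctggtcctgaga
These matches describe letters in the windows and not occupancy by a factor, which was not examined in these libraries.

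In stimulated GFP + Plum cells, 32 of the 34 genes were well measured. Among them the highest TPM belonged to Acly, the ATP citrate lyase that supplies cytosolic acetyl-CoA, at 165 ± 19.2 TPM (SD, n = 2), followed by Scd2, a stearoyl-CoA desaturase, at 124 ± 24.4 TPM, Fdps, the farnesyl diphosphate synthase, at 110.4 ± 11.5 TPM, and Fasn, the fatty acid synthase, at 98.1 ± 18.3 TPM. Acly exceeded Scd2 by more than either SD, whereas Scd2 and Fdps, and Fdps and Fasn, differed by less than the larger SD of the pair. Lowest of the 32 was Nsdhl, a sterol dehydrogenase, at 2.14 ± 0.257 TPM, below Mvk, the mevalonate kinase, at 5.27 ± 0.385 TPM. Abca1, the cholesterol exporter, and Mylip, an LXR-induced ubiquitin ligase for lipoprotein receptors, had at most 1 count in any of the 8 libraries, which is below the floor, and failed edgeR's filter on low counts. Abcg1, the other sterol exporter in the list, was at 67.5 ± 14.5 TPM.

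Summed by role, libraries with and without FLAG-T-bet were separate only in the mevalonate arm and in the genes from squalene to cholesterol. The 7 genes of the mevalonate arm summed to 199 ± 17.4 TPM in the control and 223 ± 16.0 TPM with GATA3 alone, against 299 ± 29.9 TPM with T-bet alone and 285 ± 22.4 TPM with both factors (SD, n = 2 each). Every library with FLAG-T-bet, the lowest at 269 TPM, was above every library without it, the highest at 234 TPM. For the 11 genes from squalene to cholesterol the sums were 224 ± 57.2 TPM in the control, 237 ± 24.3 TPM with GATA3 alone, 291 ± 27.2 TPM with T-bet alone and 276 ± 12.8 TPM with both factors, and here too the groups did not overlap, although by a small margin (265 TPM in replicate 1 of GFP + Plum against 267 TPM in replicate 2 of T-bet + GATA3). The 6 fatty acid synthesis genes showed no such order, with means between 437 and 486 TPM in the 4 lines and library values between 402 and 508 TPM. Sterol sensing genes summed to 195 ± 18.3, 205 ± 17.3, 256 ± 30.6 and 221 ± 23.8 TPM in the same order of lines and overlapped. Sterol transport genes overlapped as well. Genes of high level weigh most in such sums. From the control to T-bet alone, Fdps went from 110 to 172 TPM, Cyp51 from 55.1 to 90.6 TPM and Insig1 from 56.2 to 113 TPM. Such sums were not computed for other sets of genes.

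**Figure D1:**
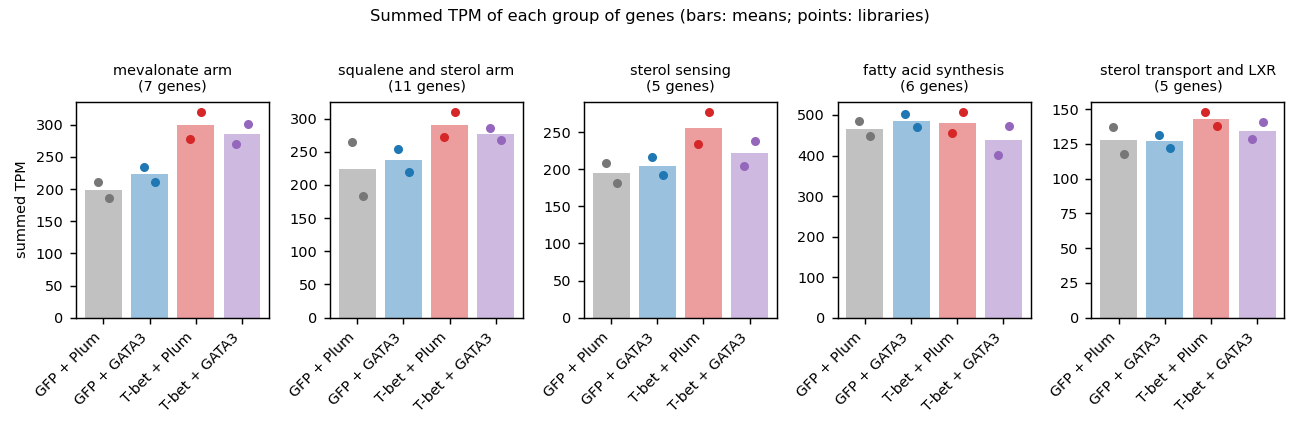
Summed TPM of the genes of each role in each of the 4 lines (bars, means from 0; points, the 2 libraries of a line). In the mevalonate arm the 4 libraries with FLAG-T-bet lie between 269 and 320 TPM and those without it between 187 and 234 TPM, whereas the fatty acid synthesis panel shows overlapping points in all lines.

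Gene by gene, expression was tested in a single fit of the 8 libraries with the quasi-likelihood test of edgeR, adjusted by the Benjamini-Hochberg method over all 14791 genes that passed the filter, and a gene was called at an FDR of at most 0.05. Log2 fold changes (FC) are positive where the first-named line was higher. When T-bet + Plum was set against GFP + Plum, 6 of the 32 tested genes rose (Idi1, Fdft1, Hsd17b7, Insig1, Fdps and Cyp51) and none fell, where 4.04% of all tested genes rose and 2.16% fell. In T-bet + GATA3 versus GFP + GATA3, 5 rose (Idi1, Fdft1, Hsd17b7, Cyp51 and Insig1) and none fell, against 3.73% and 2.05% of all genes. For T-bet + GATA3 versus GFP + Plum the count was also 5 (Idi1, Fdft1, Fdps, Cyp51 and Insig1), with none lower, against 3.44% and 1.43%, and this comparison shares its control libraries with the first. The T-bet effect averaged over the absence and presence of HA-GATA3, which uses all 8 libraries, called 8 of the 32 genes higher, the 6 above together with Acly and Dhcr7, and none lower, against 8.55% and 6.61% of all genes. An unadjusted p below 0.05 was found for 14, 9, 10 and 17 of the 32 genes in these comparisons, in the order given, and for 19.4%, 19.6%, 17.8% and 29.2% of all genes. The median log2 FC of the 32 genes was 0.30, 0.18, 0.21 and 0.26, whereas that of all tested genes was 0.01, 0.01, 0.00 and 0.02. These were moderate changes, and none of the 32 reached the study's own threshold of a log2 FC above 1.5 in size in addition to the FDR, which 3.02%, 2.85%, 2.61% and 4.50% of all genes reached. In bulk RNA, a larger share of strongly expressing cells and more RNA per cell cannot be told apart. Markers of cell types moved with T-bet as well, and their part in these results was not tested. Of the T cell markers, Cd2, Lck, Zap70 and Cd3d rose, with log2 FCs of 3.01, 1.52, 0.71 and 0.50 for the averaged effect, and the list summed to between 594 and 728 TPM without T-bet and between 673 and 944 TPM with it. Cd3e, Cd3g and Thy1 of the same list were not called, at 0.16, 0.06 and -0.31, and Cd247 failed the filter. The 4 fibroblast markers summed to between 3.56 and 7.12 TPM without T-bet and between 0.576 and 1.95 TPM with it. This was through Pdgfra, which fell (log2 FC -1.81, edgeR FDR = 0.000707). Dcn of that list was called higher for both factors against the control, though not for the averaged effect. It had 1 and 7 counts in GFP + GATA3, 8 and 15 in T-bet + GATA3 and none in the other lines. The 5 macrophage or dendritic cell markers summed to at most 1.151 TPM without T-bet and 1.06 TPM with it. Of these, Lyz2 fell (-2.58), from between 6 and 12 counts without T-bet to 1 or 2 with it, below the floor of 3. Itgax of this last list went the other way without being called (0.99, edgeR FDR = 0.350). The comparisons within a single GATA3 state rested on few libraries. With any library left out, the median log2 FC of the 32 genes stayed between 0.236 and 0.385 for T-bet alone against the control. For both factors against GATA3 alone it stayed between 0.151 and 0.374. In each fit named next for a pair of lines, fewer of all genes were called as well than with all 8 libraries. The lost calls therefore cannot be read as particular to these genes. Without replicate 2 of T-bet + Plum no gene was called for T-bet alone against the control (7 of the 32 then had an unadjusted p below 0.05), and without replicate 2 of GFP + Plum 2 were. In T-bet + GATA3 versus GFP + GATA3 no gene was called without replicate 2 of GFP + GATA3 (8 with an unadjusted p below 0.05), 1 was called without replicate 1 of either line and 3 without replicate 2 of T-bet + GATA3. For T-bet + GATA3 versus GFP + Plum 1 was called without replicate 1 of T-bet + GATA3 or replicate 2 of GFP + Plum, and 3 without replicate 2 of T-bet + GATA3 or replicate 1 of GFP + Plum. By contrast, the averaged T-bet effect called between 6 and 10 with any single library left out. None of these was lower except Scd2, without replicate 2 of GFP + GATA3 or of T-bet + GATA3, and Srebf1, without the latter.

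**Figure D2:**
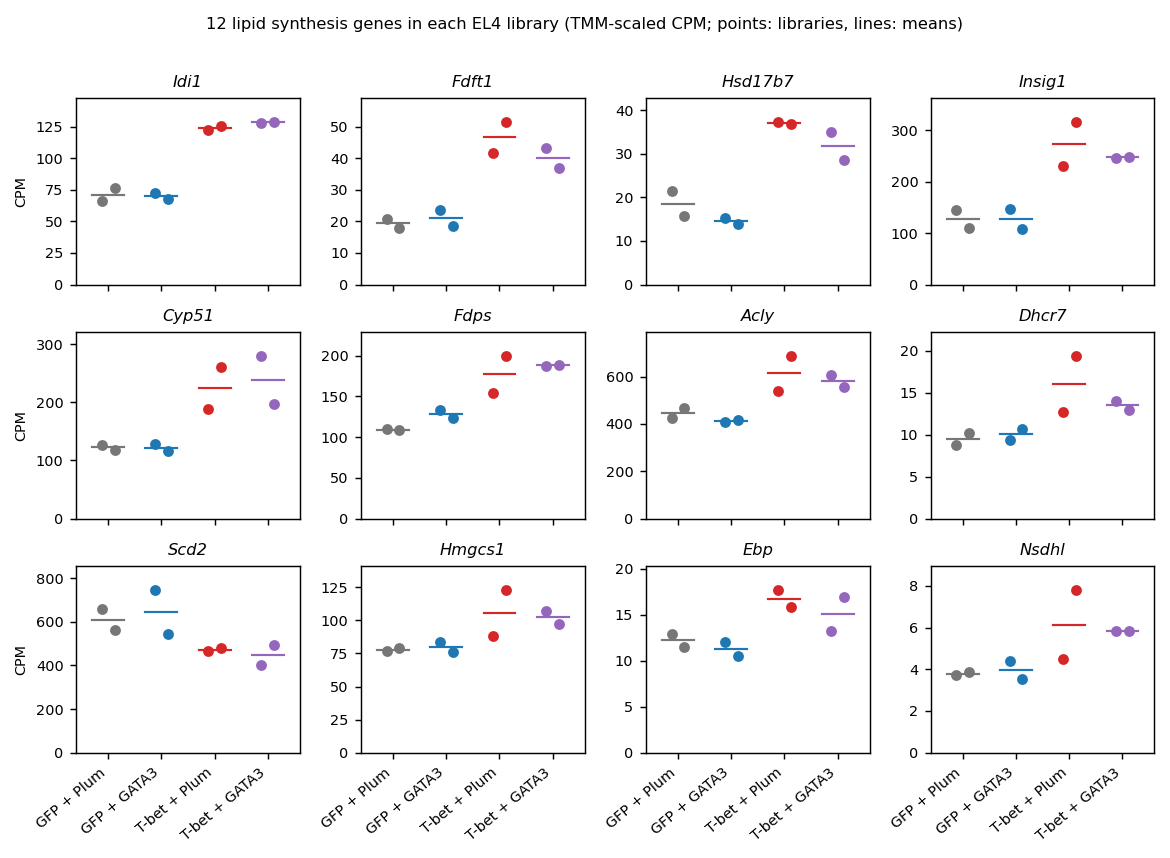
TMM-scaled CPM of 12 genes in each library (points) with the mean of each line (horizontal lines), on linear axes from 0. The 8 genes called for the averaged T-bet effect (Idi1 to Dhcr7) are higher in all 4 libraries with FLAG-T-bet than in all 4 without it, Scd2 is lower in all 4, and replicate 2 of T-bet + Plum is the highest library for Fdft1, Insig1, Fdps, Acly, Dhcr7, Hmgcs1 and Nsdhl.

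In the mevalonate arm, Idi1 and Fdps rose in cells with T-bet. Idi1 (chromosome 13, 8885501 to 8892451, GRCm38), the isomerase that interconverts the isopentenyl and dimethylallyl diphosphate units, was at 65.8 and 76.1 CPM in the control, 72.6 and 68.0 CPM with GATA3 alone, 123 and 125 CPM with T-bet alone, and 128 and 129 CPM with both factors. All 4 libraries with T-bet thus lay far above the others, with very little spread within a line. Its averaged T-bet effect was 1.79-fold (log2 FC 0.84, standard error 0.08, edgeR FDR = 0.000505), and it was called under 15 of 15 alternatives, with an FDR between 3.84e-11 and 0.00529. Fdps (chromosome 3, 89093588 to 89101959), which condenses those units to farnesyl diphosphate, was at 109.8 and 108 CPM in the control, 133 and 123 CPM with GATA3 alone, 154 and 199 CPM with T-bet alone, and 187 and 189 CPM with both factors. The lowest library with T-bet was therefore 154 CPM and the highest without it 133 CPM. Fdps was 1.54-fold higher with T-bet (log2 FC 0.63, standard error 0.10, edgeR FDR = 0.00452), which was called under 15 of 15 alternatives. Hmgcs1, the HMG-CoA synthase at the start of the arm, was at 77.7 ± 1.58 CPM in the control, 79.7 ± 5.15 CPM with GATA3 alone, 106 ± 24.5 CPM with T-bet alone and 102 ± 6.96 CPM with both factors. It did not overlap between the libraries with and without T-bet but, at 0.40 on the log2 scale with a standard error of 0.12, missed the threshold (edgeR FDR = 0.0530), and 6 of 15 alternatives called it higher. The other 4 genes of the arm were not called. Of these, Mvd, the mevalonate diphosphate decarboxylase, had a log2 FC of 0.71 with a standard error of 0.28, the largest error of the 32 genes, and its replicates within GFP + Plum were at 15.9 and 7.48 CPM. Values for Mvk, Pmvk and Acat2, the mevalonate and phosphomevalonate kinases and the cytosolic thiolase, were 0.38, 0.29 and 0.14 on the log2 scale.

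Among the genes from squalene to cholesterol, 4 of 11 rose in cells with T-bet, and they stand at separate steps of the route. Fdft1 (chromosome 14, 63145150 to 63179578), the squalene synthase that commits farnesyl diphosphate to sterols, had the largest averaged change of the 32 genes, within 1 standard error of that of Hsd17b7, whose change was the larger one in the presence of HA-GATA3. It was at 20.7 and 18.01 CPM in the control and 23.6 and 18.6 CPM with GATA3 alone, against 41.8 and 51.5 CPM with T-bet alone and 43.1 and 37.0 CPM with both factors. The groups were well separated, and the averaged T-bet effect was 2.14-fold (log2 FC 1.10, standard error 0.13, edgeR FDR = 0.00110). Cyp51 (chromosome 5, 4081145 to 4104746), which demethylates lanosterol, was at 127 and 117 CPM in the control, 128 and 116 CPM with GATA3 alone, 189 and 260.1 CPM with T-bet alone, and 279.5 and 197 CPM with both factors. Here the lines with T-bet were higher in every library but spread widely between replicates, and the averaged effect was 1.89-fold (log2 FC 0.92, standard error 0.14, edgeR FDR = 0.00436). Hsd17b7 (chromosome 1, 169949535 to 169969241), a reductase of sterol ketones, was at 21.4 and 15.8 CPM in the control, 15.2 and 13.8 CPM with GATA3 alone, 37.3 and 36.8 CPM with T-bet alone, and 35.0 and 28.5 CPM with both factors. It was 2.09-fold higher with T-bet (log2 FC 1.06, standard error 0.13, edgeR FDR = 0.00142). Fdft1, Cyp51 and Hsd17b7 were each called for the averaged effect under 15 of 15 alternatives.

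Dhcr7 (chromosome 7, 143823145 to 143848410), the reductase of the final step to cholesterol, was at 8.79 and 10.1 CPM in the control, 9.38 and 10.7 CPM with GATA3 alone, 12.7 and 19.4 CPM with T-bet alone, and 14.1 and 13.0 CPM with both factors. Its averaged T-bet effect of 1.51-fold (log2 FC 0.60, standard error 0.16, edgeR FDR = 0.0433) was the least firm of the 8 calls, as 5 of 15 alternatives called it. Left out in turn, both replicates of GFP + Plum, of GFP + GATA3 and of T-bet + GATA3 and replicate 2 of T-bet + Plum each ended the call, the last with a log2 FC of 0.42 (edgeR FDR = 0.151). In TPM, Dhcr7 overlapped between lines, with 12.0 TPM in replicate 2 of GFP + GATA3 and 8.44 and 9.82 TPM with both factors. Ebp, the sterol isomerase, and Nsdhl were higher in CPM, though not in TPM, in all libraries with T-bet but not called. Ebp was at 12.2 ± 0.939, 11.3 ± 1.08, 16.7 ± 1.33 and 15.1 ± 2.66 CPM in the control, with GATA3 alone, with T-bet alone and with both factors (log2 FC 0.44, edgeR FDR = 0.0624). Nsdhl, the lowest of the tested genes, was at 3.79 ± 0.110, 3.98 ± 0.602, 6.14 ± 2.34 and 5.85 ± 0.00918 CPM in the same order (log2 FC 0.64, edgeR FDR = 0.0879). Each of these was called by 1 of 15 alternatives. Sqle, the squalene epoxidase and a rate-limiting enzyme of the route, differed little, with means between 65.5 and 70.0 CPM in the 4 lines and an averaged log2 FC of 0.04 (95% interval -0.18 to 0.26). Lss, the lanosterol synthase that follows it, had a log2 FC of 0.13 (95% interval -0.14 to 0.40), and Tm7sf2, a sterol reductase, of -0.03 (95% interval -0.33 to 0.27). Msmo1, the methylsterol oxidase that acts after Cyp51, was at 0.15 with a standard error of 0.23, and Sc5d, the sterol desaturase before Dhcr7, at 0.28 (edgeR FDR = 0.119).

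**Figure D3:**
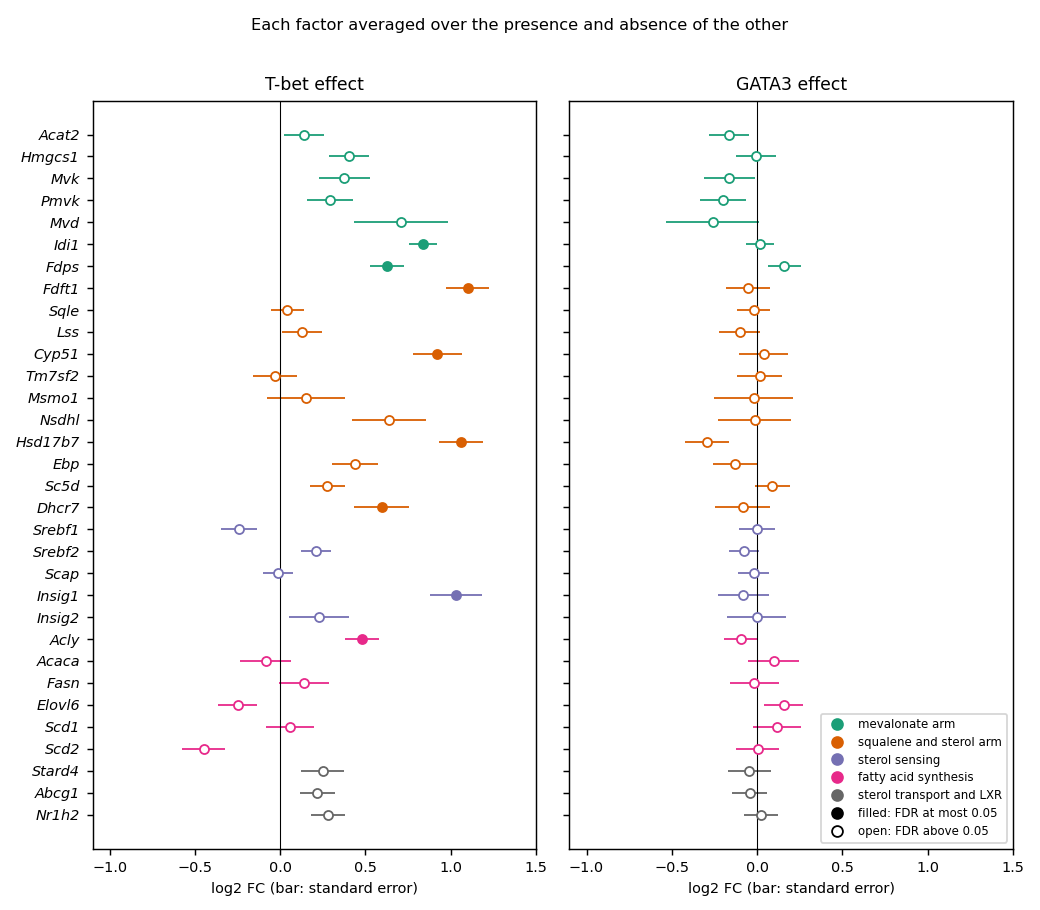
Log2 FC of each of the 32 tested genes for T-bet (left) and GATA3 (right), each averaged over the absence and presence of the other factor, with bars for standard errors and filled points for an FDR of at most 0.05. The 8 filled points are all in the T-bet panel between 0.48 and 1.10, and the GATA3 panel has only open points, between -0.29 and 0.16.

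Of the 5 sterol sensing genes, Insig1 alone rose. Insig1 (chromosome 5, 28071363 to 28078662), which retains SREBPs in the endoplasmic reticulum and is itself an SREBP target, was at 145.2 and 111 CPM in the control, 146 and 107 CPM with GATA3 alone, 230.5 and 316 CPM with T-bet alone, and 246 and 248 CPM with both factors. The highest library without T-bet was 146 CPM and the lowest with it 230.5 CPM. Its averaged T-bet effect was 2.04-fold (log2 FC 1.03, standard error 0.15, edgeR FDR = 0.00313), called under 15 of 15 alternatives. The SREBP genes themselves were not called. Srebf2, whose product mainly drives sterol synthesis, was at 178 ± 23.1, 178 ± 3.02, 217 ± 11.2 and 195 ± 3.17 CPM in the control, with GATA3 alone, with T-bet alone and with both factors (log2 FC 0.21, edgeR FDR = 0.157). Srebf1, whose product mainly drives fatty acid synthesis, was at 92.5 ± 2.37, 98.8 ± 0.481, 83.3 ± 6.29 and 78.2 ± 15.6 CPM, lower in all 4 libraries with T-bet than in all 4 without it (log2 FC -0.24, edgeR FDR = 0.172). Insig2, the paralogue of Insig1, had a log2 FC of 0.23 (95% interval -0.18 to 0.63) and Scap of -0.01 (95% interval -0.22 to 0.19).

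The fatty acid synthesis genes did not move together. Acly (chromosome 11, 100476353 to 100528000) was at 424 and 466 CPM in the control, 407 and 417 CPM with GATA3 alone, 541 and 686 CPM with T-bet alone, and 607 and 556 CPM with both factors. It was 1.39-fold higher with T-bet (log2 FC 0.48, standard error 0.10, edgeR FDR = 0.0156), with all 4 libraries above the others. Leaving out replicate 1 or 2 of GFP + GATA3, replicate 1 of T-bet + GATA3 or replicate 2 of T-bet + Plum raised its FDR to between 0.0607 and 0.0668, at a log2 FC of 0.39 or more. Scd2 (chromosome 19, 44293674 to 44306864) went the other way, at 659.6 and 561 CPM in the control, 746 and 547 CPM with GATA3 alone, 465 and 479 CPM with T-bet alone, and 402 and 496 CPM with both factors. All libraries with T-bet were below all those without it, at 0.733 times their level (log2 FC -0.45, standard error 0.13), and its edgeR FDR of 0.05002 fell just outside the threshold, with 8 of 15 alternatives calling it lower. Fasn, Acaca and Scd1, which encode the fatty acid synthase, the acetyl-CoA carboxylase and another desaturase, had log2 FCs of 0.14, -0.08 and 0.06 with standard errors of 0.14, 0.15 and 0.14. Elovl6, an elongase of long-chain fatty acids, had a log2 FC of -0.25 (edgeR FDR = 0.195). No gene of the sterol transport group was called, and its 3 tested members, the cytosolic sterol carrier Stard4, Abcg1 and the LXR gene Nr1h2, had log2 FCs of 0.25, 0.22 and 0.28.

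Counted in TMM-scaled CPM without a model, 14 of the 32 genes were higher in all 4 libraries with FLAG-T-bet than in all 4 without it, where 12.5% of all 14791 tested genes were, and 2 (Scd2 and Srebf1) were lower, against 10.2%. The 14 were the 8 called genes with Hmgcs1, Mvk, Pmvk, Nsdhl, Ebp and Nr1h2. The remaining 16 overlapped. In TPM, Mvk, Pmvk, Ebp, Nsdhl, Nr1h2 and Dhcr7 overlapped as well, so their separation depended on the measure. Pmvk was at 10.2 ± 0.427 TPM in the control and 10.1 ± 0.213 TPM with both factors (SD, n = 2). Mvk was at 5.27 ± 0.385 and 5.38 ± 0.940 TPM in the same lines. The shares of all genes were counted in CPM only. Among the 6 genes other than the called ones, Nr1h2 was at 21.2 and 18.01 CPM in the control and 21.2 and 22.6 CPM with GATA3 alone, against 25.9 and 26.6 CPM with T-bet alone and 24.5 and 23.9 CPM with both factors (averaged edgeR FDR = 0.100), whereas Pmvk was separated by less than 1 CPM, with 10.2 CPM at most without T-bet and 10.3 CPM at least with it.

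HA-GATA3 moved none of these genes past the threshold. In GFP + GATA3 versus GFP + Plum no gene was called by edgeR or DESeq2 and none had an unadjusted p below 0.05, where 0.0203% of all genes (3 of 14791) were called. Such a p was found for only 3.70% of all genes. The median log2 FC of the 32 genes was -0.01, and its sign was not stable, since it was 0.01 with offsets for transcript length. The same counts, none called by edgeR or DESeq2 and none at an unadjusted p below 0.05, were found for both factors against T-bet alone (0.0338% of all genes called) and for the GATA3 effect averaged over both T-bet states (0.0608%). Of all genes, 3.78% and 4.96% had an unadjusted p below 0.05 there, so counts of 0 are not particular to these genes. Few genes of any kind were called for GATA3 in these libraries. For the 8 genes called for T-bet, the averaged GATA3 effect had 95% intervals of -0.17 to 0.21 for Idi1, -0.35 to 0.24 for Fdft1, -0.59 to 0.01 for Hsd17b7, -0.42 to 0.26 for Insig1, -0.29 to 0.37 for Cyp51, -0.07 to 0.39 for Fdps, -0.32 to 0.14 for Acly and -0.46 to 0.29 for Dhcr7. The largest averaged values were -0.29 for Hsd17b7 and 0.16 for Fdps.

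Adding T-bet gave similar changes in both GATA3 states. The level of Gata3 RNA was not constant, however, and was lower with T-bet (averaged log2 FC -0.67, edgeR FDR = 0.0174). Gata3 was at 283 and 326 CPM with GATA3 alone, and at 204 and 165 CPM with both factors. Its bearing on the changes below was not tested. Across the 32 genes the log2 FC of T-bet without HA-GATA3 and that with HA-GATA3, which share no library, correlated with r = 0.917 and Spearman's rho of 0.889, and 27 genes had the same sign. This is a description across genes of 4 lines, with genes that are not independent replicates. Fdft1 had log2 FCs of 1.27 and 0.93, Insig1 of 1.09 and 0.97, Hsd17b7 of 0.99 and 1.13, Cyp51 of 0.88 and 0.96, Idi1 of 0.81 and 0.87, and Fdps of 0.70 and 0.55, without and with HA-GATA3. The difference itself, tested as the interaction of T-bet and GATA3, was called for none of the 32 genes by edgeR or DESeq2, nor by edgeR for any of the 14791 (0% called), and none of the 32 had an unadjusted p below 0.05, where 2.58% of all genes did. The 95% intervals of the interaction ran from -0.93 to 0.24 for Fdft1, -0.81 to 0.56 for Insig1, -0.46 to 0.73 for Hsd17b7, -0.58 to 0.74 for Cyp51, -0.32 to 0.44 for Idi1 and -0.60 to 0.31 for Fdps, so differences of that size between the 2 states are not excluded by these libraries.

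**Figure D4:**
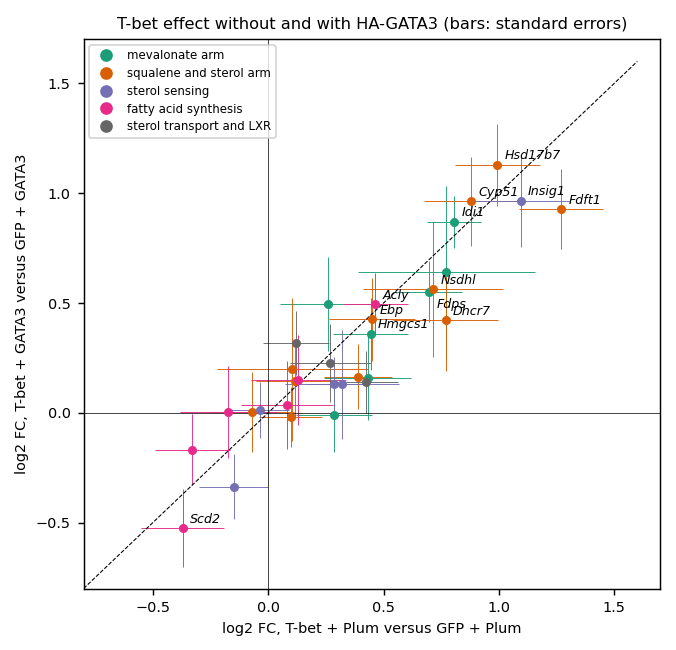
Log2 FC of T-bet alone versus the control (horizontal) against both factors versus GATA3 alone (vertical) for the 32 tested genes, with bars for standard errors and a dashed line of equality. Points lie along the dashed line (r = 0.917), from Scd2 at -0.37 and -0.52 to Fdft1 at 1.27 and 0.93.

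Replicate 2 was also compared with replicate 1 over the 4 lines, with line as a term. Of the 32 genes edgeR called none (0.0135% of all genes called) and 7 had an unadjusted p below 0.05, as did 16.3% of all genes. DESeq2 called 2 (294 of all 14791 genes), and edgeR without a filter called 4 of the 34 (1356 of all 30930). Those 7 were Mvd (log2 FC -0.64), Msmo1 (-0.55), Insig2 (-0.33), Tm7sf2 (-0.27), Abcg1 (-0.20), Fasn (0.33) and Acaca (0.30), none of which was called for T-bet. Mvd was lower in replicate 2 of every line, at 15.9 and 7.48 CPM in the control, 13.1 and 7.55 CPM with GATA3 alone, 21.3 and 18.8 CPM with T-bet alone, and 19.0 and 13.0 CPM with both factors. Msmo1 was at 71.2 and 36.7, 61.5 and 41.8, 60.6 and 55.7, and 70.6 and 48.0 CPM in the same order, with little difference for T-bet alone.

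The leading transcript was examined for 2 genes whose estimates were split between isoforms, which kallisto assigns by shared fragments. The called genes Hsd17b7, Acly and Dhcr7 were split as well, with 52.9%, 41.3% and 31.1% in the leading transcript, and are not given by transcript here. For Fdft1, the coding transcript Fdft1-201 held 59.6% of the gene's TPM on average and was at 7.30 and 5.28 TPM in the control, 7.51 and 6.56 TPM with GATA3 alone, 13.0 and 16.3 TPM with T-bet alone, and 11.7 and 12.6 TPM with both factors. For Cyp51, the leading coding transcript held 59.2% and was at 34.9 and 28.5 TPM in the control, 34.6 and 31.0 TPM with GATA3 alone, 49.1 and 65.7 TPM with T-bet alone, and 62.6 and 49.7 TPM with both factors. The leading coding transcript of both genes was thus higher in each library with T-bet than in each without it. Idi1 and Insig1 were carried almost wholly by a single coding transcript, with 99.1% and 94.0% of their TPM, whereas the leading transcript of Msmo1 was a non-coding processed transcript with 36.8%, so its level as a gene only partly reflects coding RNA.

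Other genes of these routes, from lists that hold none of the 34, were followed for the averaged T-bet effect. These lists, too, were chosen with earlier results of these data known, so their counts are not independent support. Of 14 tested genes of fatty acid elongation, desaturation and activation (18 listed), 3 rose and none fell, where 8.55% of all tested genes rose and 6.61% fell. Hacd2, a dehydratase of the elongation cycle, was at 27.2 and 34.4 CPM in the control, 24.6 and 30.9 CPM with GATA3 alone, 87.4 and 88.3 CPM with T-bet alone, and 77.5 and 63.8 CPM with both factors, a 2.69-fold difference (log2 FC 1.43, edgeR FDR = 0.000268) and larger than that of any of the 32 genes. Acsl3 and Acsl4, which activate long-chain fatty acids, followed at log2 FCs of 0.50 and 0.48 (edgeR FDR = 0.0221 and 0.0295). Both differed more in the presence of HA-GATA3. Acsl3 had means of 87.3, 69.2, 101 and 120 CPM and Acsl4 of 110, 121, 129 and 201 CPM in the order of lines given above. T-bet alone against the control called 1 of the 14 higher (4.04% of all genes), and both factors against GATA3 alone called 3 (3.73%). Of 10 tested genes of sterol trafficking, storage and oxysterols (13 listed), 2 rose and none fell, against the same shares of all genes. These were Gramd1a, which carries sterol from the plasma membrane to the endoplasmic reticulum, with a log2 FC of 0.99 (edgeR FDR = 0.000460), and Lipa, the lysosomal acid lipase that frees cholesterol from its esters, with 0.85 (edgeR FDR = 0.00436). Neither direction held a called gene among 10 of the isoprenoid branch, 8 of SREBP processing and sterol-regulated degradation, or 4 tested LXR partners and targets (5 listed).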

How the data were processed

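RNA-seq of 4 EL4 lines, 2 libraries each, was analysed. The authors used FastQC, Trim Galore and then kallisto on paired-end reads of 100 bases, and deposited for each library estimated counts and TPM for 136535 transcripts without pooling. Their methods name Gencode M20, the deposited values M18, and the build is GRCm38 (mm10). The estimated counts are not normalized. The deposited TPM are corrected for length and scaled to a fixed sum per library. kallisto splits fragments shared by paralogues or isoforms, so such genes are less certain.

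Gene counts are sums of these over transcripts, rounded to whole numbers. edgeR 4.0.16 (R 4.3.3) was used with TMM, filterByExpr and the quasi-likelihood test in 1 fit of the 8 libraries by line (4 residual degrees of freedom), and p-values were adjusted by the Benjamini-Hochberg method over 14791 genes. Each standard error is the log2 FC divided by the root of its F statistic. The study used DESeq2 with tximport, and DESeq2 1.42.0 and length offsets were alternatives, with library-size scaling, no filter, at least 10 counts per library, protein-coding genes, the replicate number as a term, each library left out, only the lines compared, and the study's fold threshold. Described in full were the 8 genes called in any comparison of lines and the 4 with the next smallest p-values. The members and lists were chosen with earlier results of these data known. Positions come from Gencode M21 and promoters from RefSeq. No libraries were copies of each other (replicates differed by a chi-square of 10.9 to 32.7 for each degree of freedom). Python 3.11.15, numpy 2.4.6, pandas 2.3.3 and matplotlib 3.10.9 were used.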

Additional observations from a re-analysis of the deposited data

How the results depend on the processing

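Of the 8 genes called for the averaged T-bet effect, Idi1, Fdft1, Hsd17b7, Insig1, Cyp51 and Fdps were called under all 15 alternatives run, Acly under 11 and Dhcr7 under 5, and no gene called in a comparison changed direction in it under any alternative. Scd2 was called lower under 8, the replicate block, DESeq2 and library-size scaling among them. The median of the members for GFP + GATA3 versus GFP + Plum changed sign (-0.01, against 0.01 with length offsets). Of the values recomputed for the 12 genes described in full, 486 stayed on their side of the threshold, 25 crossed into a call and 53 lost it. The study's fold threshold was not counted among the 15 alternatives above, and with it 0 members were called in each T-bet comparison. For T-bet + GATA3 versus GFP + Plum, length offsets gave 3 and a fit of those lines alone 0 (8 at an unadjusted p below 0.05). Over all genes these fits called 622 of 14791 and 294 of 13924. Without a filter, T-bet + GATA3 versus GFP + GATA3 gave 8 of 34, where 1936 of all 30930 genes were called. Left out one at a time, libraries gave 0 to 6 calls in T-bet + Plum versus GFP + Plum, 1 to 4 in T-bet + GATA3 versus GFP + Plum, 0 to 6 for both factors versus GATA3 alone and 6 to 10 for the averaged T-bet effect. The lone library of a line was then assumed to vary like the others, and fewer libraries were available by construction. Replicate 2 versus replicate 1 gave 2 with DESeq2 and 4 without a filter. For the other changes the cause was not tested. With the replicate number as a block the counts were 6, 6, 6 and 11 (10 higher and 1 lower) for these 4 T-bet comparisons and 0 for the GATA3 comparisons and the interaction. Over all 14791 genes that fit called 1440, 1110, 1379 and 3063 for the T-bet comparisons in the order last named. Deviations of same-numbered libraries correlated with r between -0.0455 and 0.302 over all genes and between 0.0716 and 0.785 over the members, not above 0.1 in every pair of lines, and the labels do not tie the numbers, so they were not taken to pair the samples.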

Other observations

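Paralogues of the listed genes were examined after values had been seen, because kallisto divides shared fragments between near-identical copies. Idi2, the paralogue of Idi1, was at 29 and 3 counts in GFP + Plum, 3 and 5 in GFP + GATA3, 92 and 47 in T-bet + Plum, and 120 and 87 in T-bet + GATA3, against between 759 and 1935 counts for Idi1. It was called higher for the averaged T-bet effect (log2 FC 3.86, standard error 0.69, edgeR FDR = 0.00828), and 3 of the 4 libraries without T-bet were at 5 counts or fewer, so its fold change is imprecise.

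Scd4, a further stearoyl-CoA desaturase, was at 240 and 121 counts in GFP + Plum and 184 and 242 in GFP + GATA3, against 11 and 18 in T-bet + Plum and 14 and 25 in T-bet + GATA3. All libraries with T-bet were thus far below those without it, at 0.106 times their level (log2 FC -3.24, standard error 0.26, edgeR FDR = 0.000170). Scd2 was lower in the same libraries by a smaller amount (0.733 times), and Scd1 was not called. Acat3 and Scd3 were low throughout, with at most 4 and 10 counts in any library. How far shared fragments enter these values was not tested.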
